A study of Homo sapiens with 12 samples.

Results

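The core genes of the circadian clock, together with the clock repressor BHLHE40, were followed in H1299 cells given siRNA against GAPDH by 2 delivery routes. The 10 listed genes were BHLHE40, PER1, PER2, PER3, CRY1, CRY2, NR1D1, NR1D2, DBP and TEF, and the platform annotation gave them 12 of the 48701 probes. A probe was kept when both arrays of at least 1 group detected it (detection p under 0.05), which kept 9 of the 12 probes and 19631 of all probes. The 9 kept probes stood for 9 of the 10 genes, of 12117 genes tested. The tenth gene, NR1D1, was detected on 3 of the 12 arrays and never on both arrays of a group, so it was not tested. A further pair of PER2 probes was detected on 2 arrays and on 0 arrays and was not used.

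H1299 cells, an established line from a human non-small cell lung carcinoma, were grown in DMEM with 10% FCS. Cells received GAPDH siRNA by lipofection, in which lipid carries the siRNA, GAPDH siRNA bound to PTD-DRBD, or PBS buffer alone as the control. PTD-DRBD joins a peptide transduction domain, which enters cells, with a domain that binds double-stranded RNA. Exposure lasted 6 h and cells were harvested at 12 h or 24 h after treatment, giving 6 groups of 2 arrays. Both siRNA groups at a given time were set against the same control arrays. No group received a non-targeting siRNA, lipid alone or PTD-DRBD alone in the arrays used here, so the carrier and the loss of GAPDH cannot be told apart. Separate cultures are not stated in the labels, and p-values here therefore reflect the array-to-array spread within groups, which may be technical.

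The clock is a feedback loop of transcription. CLOCK and BMAL1 activate genes through E-boxes, among them the period (PER) and cryptochrome (CRY) genes, whose proteins then repress CLOCK and BMAL1. BHLHE40, also called DEC1, binds E-boxes as a repressor, and the REV-ERB receptors NR1D1 and NR1D2 repress BMAL1. DBP and TEF are PAR bZIP activators that bind D-boxes in output genes, while CIART, also called CHRONO, is a further repressor of CLOCK and BMAL1. Cultured cells keep the loop individually, and serum, hormones or a change of medium can set many cells to a common phase.

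RefSeq promoter sequences of GRCh38.p14 were matched for all 10 genes, each spanning 250 bases before to 50 bases after the gene start. They were searched on both strands for the E-box CACGTG, for the variant CACGTT and for the D-box TTATGTAA, the variant having been added after the sequences were read. The first base of the BHLHE40 E-box lies at -245 relative to the gene start, that of PER1 at -173 and the PER2 variant at -197. The E-box was present in 3 of the 10 promoters (BHLHE40, PER1 and TEF), against 7.26% of 35116 promoters of the same length. The variant was present in 3 (PER2, CRY1 and NR1D1), against 5.34% of all promoters, and the D-box letters TTATGTAA in 1 (PER3), against 0.886%. D-box spellings other than TTATGTAA were not searched. The PER2 promoter holds TTACGTAA and the PER1 promoter TTATGCAA, each of which differs by 1 letter, and such near spellings were not counted in the other promoters. CIART held 3 E-boxes, at -129, -71 and -57. The promoters of BHLHE40, PER1, PER2 and CIART are shown because the comparisons below turn on these genes, with each E-box or variant in capitals. They lie at chr3:4979187-4979486 on the plus strand (BHLHE40), chr17:8152355-8152654 on the minus strand (PER1), chr2:238288561-238288860 on the minus strand (PER2) and chr1:150282304-150282603 on the plus strand (CIART).
BHLHE40: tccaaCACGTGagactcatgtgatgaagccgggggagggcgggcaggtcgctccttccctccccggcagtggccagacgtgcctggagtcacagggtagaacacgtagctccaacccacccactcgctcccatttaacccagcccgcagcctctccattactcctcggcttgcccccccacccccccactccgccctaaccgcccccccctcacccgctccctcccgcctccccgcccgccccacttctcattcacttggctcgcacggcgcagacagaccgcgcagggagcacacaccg
PER1: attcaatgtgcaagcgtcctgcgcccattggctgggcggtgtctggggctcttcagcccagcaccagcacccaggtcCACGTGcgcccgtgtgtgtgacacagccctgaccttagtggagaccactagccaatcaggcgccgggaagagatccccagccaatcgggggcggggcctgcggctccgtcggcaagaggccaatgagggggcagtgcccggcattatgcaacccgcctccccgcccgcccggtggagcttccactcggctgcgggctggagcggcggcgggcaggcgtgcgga
PER2: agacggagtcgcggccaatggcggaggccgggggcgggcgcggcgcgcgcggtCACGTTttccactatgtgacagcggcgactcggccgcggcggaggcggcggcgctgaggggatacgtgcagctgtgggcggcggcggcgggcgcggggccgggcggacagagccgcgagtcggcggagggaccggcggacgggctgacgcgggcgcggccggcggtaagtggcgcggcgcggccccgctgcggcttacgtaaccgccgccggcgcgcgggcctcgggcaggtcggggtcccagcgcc
CIART: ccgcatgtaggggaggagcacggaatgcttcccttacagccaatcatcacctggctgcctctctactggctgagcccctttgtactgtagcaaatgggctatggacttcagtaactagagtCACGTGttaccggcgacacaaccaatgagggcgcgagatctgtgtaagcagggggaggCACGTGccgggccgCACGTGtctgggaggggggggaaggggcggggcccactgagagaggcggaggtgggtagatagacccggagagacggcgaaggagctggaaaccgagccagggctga
A match to these letters is a description of the sequence, and no binding was measured.

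Arrays detected 17990 to 19097 probes each, at a median raw signal of 61.3 to 73.1. GAPDH, the target of the siRNA, had 41.6% of the control signal with lipofection and 9.77% with PTD-DRBD at 12 h. At 24 h it had 51.3% with lipofection and 14.0% with PTD-DRBD. The epithelial keratins KRT8, KRT18 and KRT7 and the mesenchymal filament gene VIM were detected on all 12 arrays. Of 13 markers of other cell types, 12 were matched to a probe here, and 2 passed the detection filter, the leukocyte marker PTPRC, at least 1 of whose 3 probes was detected on all 12 arrays, and the endothelial marker PECAM1, detected on 6. HBA1 was detected on 5 arrays and DCN on 2, and the other 8 (among them CD3E, CD14, HBB and COL1A1) on 0. Over 12117 genes, the difference between the second and first array of lipofection at 24 h correlated with that of PTD-DRBD at 24 h (Pearson r = 0.32). Counts at 24 h are therefore also given without these second arrays. Other pairs of groups had values down to -0.4, for lipofection at 24 h with PTD-DRBD at 12 h. The sign depends on the order of the 2 arrays in each group, so 0.32 was not the strongest of these values. Levels below are background-corrected, quantile-normalized log2 signals, differences are on the same log2 scale with the limma standard error (SE), and every group has n = 2 arrays. A gene was called when its limma p, adjusted by Benjamini-Hochberg over all 12117 genes, was under 0.05. An exact permutation test of 2 arrays against 2 cannot go below p = 0.333.

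Against control at 12 h, lipofection called 2 of the 9 clock genes, CRY2 higher and PER2 lower, where 11.9% of all genes were called (4.95% higher and 6.92% lower). PTD-DRBD at 12 h also called 2, BHLHE40 and PER3, both lower, where 7.88% of all genes were called (3.42% higher and 4.46% lower). At 24 h lipofection called 3, PER1, PER2 and CRY2, all higher, against 23.6% of all genes called (10.6% higher and 12.9% lower). PTD-DRBD at 24 h called PER2 higher and BHLHE40 lower, against 14% of all genes called (5.87% higher and 8.15% lower). These shares depend on single arrays. Without any 1 of the 4 arrays compared, 516 to 710 of all genes were called with lipofection and 309 to 437 with PTD-DRBD at 12 h, against 1439 and 955 with all arrays. At 24 h the lowest counts over single arrays left out were 1181 for lipofection and 179 for PTD-DRBD, both without the treatment's second array, against 2854 and 1699. Without the second arrays of both treated groups, the count at 24 h stayed at 3 for lipofection and was 0 for PTD-DRBD by limma, where 3 had an unadjusted p under 0.05. The median difference of the 9 genes was 0.12 with lipofection and -0.30 with PTD-DRBD at 12 h, and 0.28 with lipofection and 0.03 with PTD-DRBD at 24 h, and the median of all genes was between -0.0057 and 0.0075 in these comparisons.

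**Figure D1:**
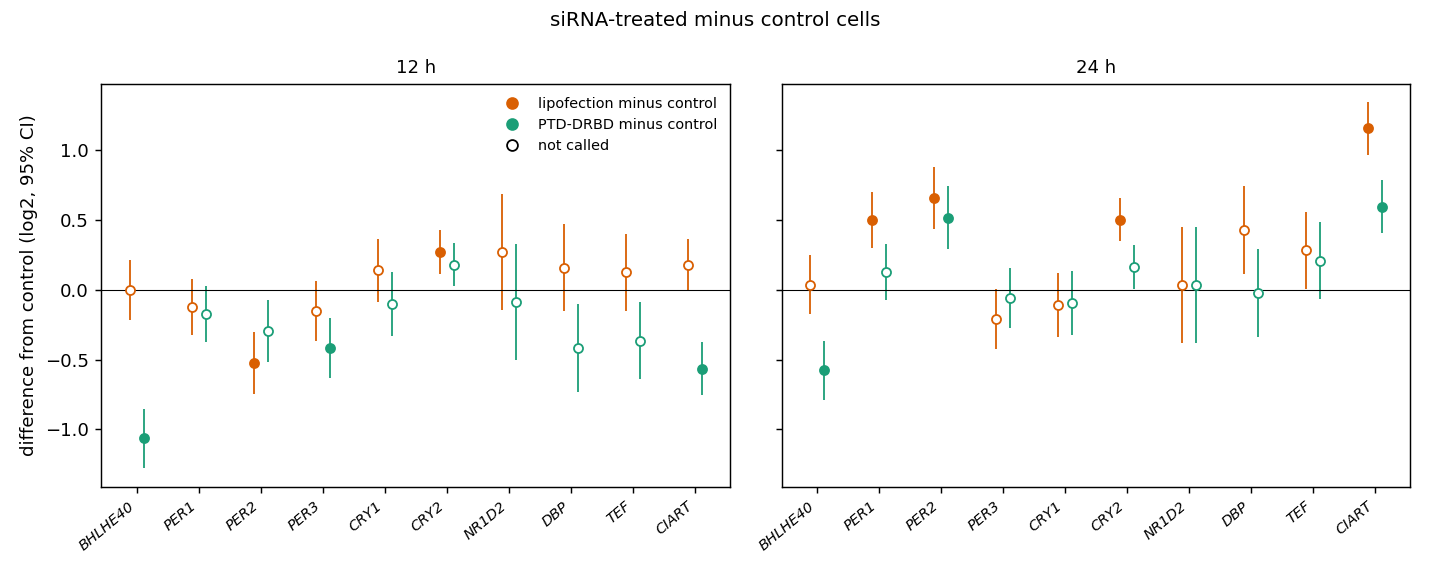
Difference from control in normalized log2 signal (vertical axis) for the 9 clock genes and CIART at 12 h (left) and 24 h (right); points are limma estimates, bars 95% confidence intervals, and filled points passed an adjusted p of 0.05. BHLHE40 lies at -1.06 with PTD-DRBD at 12 h and near 0 with lipofection at both times, and PER2 lies below 0 at 12 h and above 0 at 24 h with both routes.

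BHLHE40 was lower with PTD-DRBD at both times and had the largest difference from control among the 9 genes. At 12 h its levels were 10.66 and 10.69 with lipofection, 9.60 and 9.62 with PTD-DRBD, and 10.83 and 10.52 in control cells. The raw signals behind these were 1651 and 1740 with lipofection, 778 and 896 with PTD-DRBD, and 2096 and 1592 in control cells. The PTD-DRBD arrays lay below all others at that time, and the lipofection arrays lay between the control arrays. PTD-DRBD lowered BHLHE40 to 47.8% of control at 12 h (log2 difference -1.06, SE 0.10, limma adjusted p = 0.000176). Lipofection left it at 99.9% of control (limma 95% confidence interval of the log2 difference -0.21 to 0.21, adjusted p = 0.997). The authors' deposited table of changes lists BHLHE40 at a signed fold of -2.04 among its 45 entries for PTD-DRBD at 12 h, and none of the 10 genes among the entries of its other 3 columns. That table is named for changes past a fold cut, so a gene missing from it can still differ. In the authors' normalized group means at 24 h, the signed fold was 1.51 for PER2 with lipofection and -1.48 for BHLHE40 with PTD-DRBD.

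At 24 h the BHLHE40 levels were 10.12 and 10.02 with lipofection, 9.47 and 9.44 with PTD-DRBD, and 9.99 and 10.08 in control cells. PTD-DRBD again stood below the other groups, at 67% of control (log2 difference -0.58, SE 0.10, limma adjusted p = 0.00529). That call was lost without the second PTD-DRBD array at 24 h (adjusted p up to 0.0558 over the alternatives). The difference between the routes was tested directly, and lipofection exceeded PTD-DRBD 2.09-fold at 12 h (limma adjusted p = 6.5e-05) and 1.53-fold at 24 h (limma adjusted p = 0.00379). The second of these was lost without the second arrays of both groups at 24 h (adjusted p = 0.0674). From 12 h to 24 h BHLHE40 fell by 0.60 with lipofection (limma adjusted p = 0.00203) and by 0.64 in control cells (limma adjusted p = 0.00234). With PTD-DRBD the change was -0.15 (SE 0.10, limma adjusted p = 0.275). The PTD-DRBD difference itself was 0.49 log2 less negative at 24 h than at 12 h, which did not pass (SE 0.14, limma adjusted p = 0.117).

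PER2, a period protein that represses CLOCK and BMAL1, was called lower than control at 12 h and higher at 24 h with lipofection, and higher at 24 h with PTD-DRBD. At 12 h its levels were 8.73 and 8.65 with lipofection, 9.00 and 8.83 with PTD-DRBD, and 9.20 and 9.22 in control cells. At 24 h they were 9.02 and 9.28 with lipofection, 8.93 and 9.10 with PTD-DRBD, and 8.51 and 8.49 in control cells. All 4 treated arrays were below both control arrays at 12 h, and all 4 were above both control arrays at 24 h. Lipofection lowered PER2 to 69.4% of control at 12 h (log2 difference -0.53, SE 0.10, limma adjusted p = 0.00694) and raised it to 157% at 24 h (0.65, SE 0.10, limma adjusted p = 0.00148). With PTD-DRBD the difference was -0.30 at 12 h, which did not pass (SE 0.10, limma adjusted p = 0.0981). At 24 h PTD-DRBD raised PER2 to 143% of control (0.52, SE 0.10, limma adjusted p = 0.0108).

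The reversal of PER2 was tested as a change of each treatment's difference between the times. The lipofection difference rose by 1.18 log2 between 12 h and 24 h (SE 0.14, limma adjusted p = 0.00213), and the PTD-DRBD difference by 0.81 (SE 0.14, limma adjusted p = 0.0427). Of all genes, 7.99% were called in the test for lipofection (3.97% higher and 4.02% lower) and 0.363% in the test for PTD-DRBD (0.124% higher and 0.239% lower). PER2 and PER1 were the clock genes called for lipofection, and PER2 was the clock gene called for PTD-DRBD. Part of each change lay in the control cells, where PER2 was at 60.9% at 24 h relative to 12 h (-0.71, SE 0.10, limma adjusted p = 0.00158). Over the same interval it rose to 138% with lipofection (0.46, SE 0.10, limma adjusted p = 0.00825, and up to 0.0801 without the second lipofection array of either time) and stood at 0.10 with PTD-DRBD, which did not pass (SE 0.10, limma adjusted p = 0.508). The call of PER2 with lipofection at 12 h was lost without the second lipofection array at 12 h (adjusted p = 0.0662). The call with PTD-DRBD at 24 h was lost without either control array or without the second PTD-DRBD array at that time (adjusted p up to 0.104), and the PTD-DRBD change between times was lost in 11 of 20 alternatives (adjusted p up to 0.166).

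**Figure D2:**
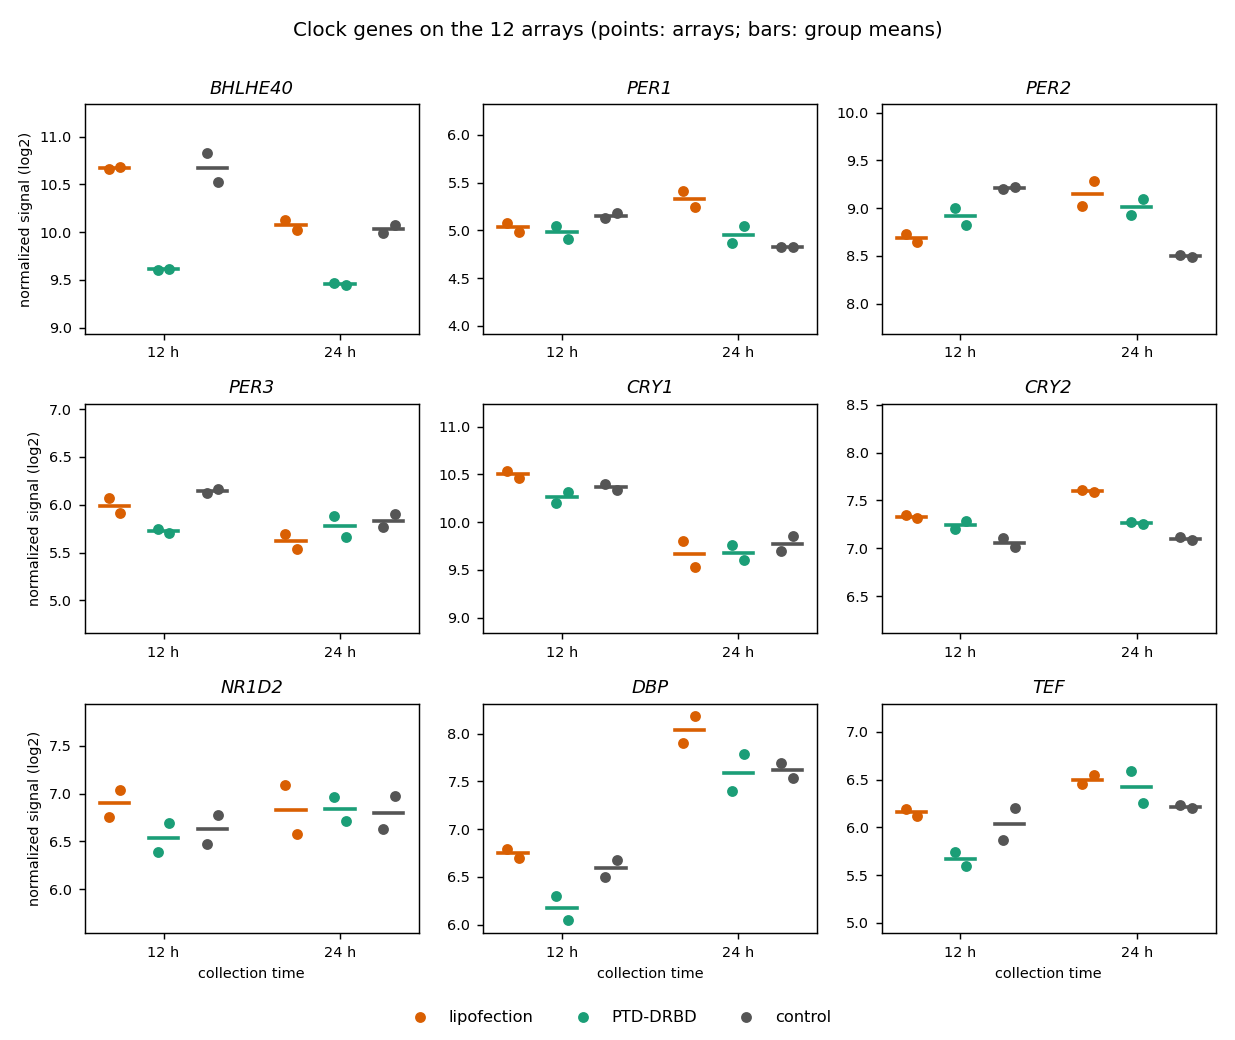
Normalized log2 signal (vertical axes, each spanning the same range) of the 9 clock genes in lipofection, PTD-DRBD and control cells at 12 h and 24 h; points are arrays and bars group means of 2 arrays. PER2 in control cells lies above every treated array at 12 h and below every treated array at 24 h, and DBP lies higher at 24 h than at 12 h in all 3 treatments.

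PER1, a period gene that also responds to CREB, was close to background. Both arrays detected it only in lipofection cells at 24 h and in control cells at 12 h, the groups where its mean was highest. It was tested only because of these groups, so the filter favoured its calls there and they are not independent of it. Its levels at 24 h were 5.41 and 5.24 with lipofection, 4.87 and 5.04 with PTD-DRBD, and 4.83 and 4.83 in control cells, where it was below detection on both arrays. Lipofection was above both other groups at that time, with a fitted log2 difference from control of 0.50 (SE 0.09, limma adjusted p = 0.0034). In these signals PER1 was at least 1.24-fold higher than in control cells. The 1.24 is a bound, because each control array was given the signal of its dimmest detected probe, or its own where that was higher. Under other processing the fitted difference was as low as 0.22, and the authors' normalized group means gave a ratio of 1.21. At 24 h PER1 in lipofection cells also exceeded its level in PTD-DRBD cells (log2 difference 0.37, SE 0.09, limma adjusted p = 0.0299), where 1 of the 2 PTD-DRBD arrays was below detection. That call was lost in 6 of 19 alternatives (adjusted p up to 0.17), among them no background correction (log2 difference 0.16), the authors' normalized values (0.19), robust moderation, and the removal of the first PTD-DRBD or the first lipofection array at 24 h. At 12 h the levels were 5.08 and 4.98 with lipofection, 5.05 and 4.91 with PTD-DRBD, and 5.13 and 5.18 in control cells, and neither route was called. The change of the lipofection difference between the times was 0.62 (SE 0.13, limma adjusted p = 0.0206), and this call was lost when any of 5 single arrays was left out or when the background was not corrected.

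PER3, the third period gene, had its highest level in control cells at 12 h. Its levels at 12 h were 6.07 and 5.91 with lipofection, 5.74 and 5.71 with PTD-DRBD, and 6.12 and 6.17 in control cells. PTD-DRBD was below both other groups, at 74.9% of control (log2 difference -0.42, SE 0.10, limma adjusted p = 0.0271). Under other processing this difference was as small as -0.21, and the authors' normalized group means gave a ratio to control of 0.841. Leaving out any of the 4 arrays of that comparison ended the call (adjusted p up to 0.13). At 24 h PER3 had levels of 5.70 and 5.54 with lipofection, 5.89 and 5.66 with PTD-DRBD, and 5.76 and 5.90 in control cells, and neither difference from control passed.

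The cryptochromes, the partners of the period proteins in repression, differed from each other. CRY2 was higher with lipofection at both times, with levels of 7.35 and 7.31 at 12 h and 7.61 and 7.59 at 24 h. With PTD-DRBD the CRY2 levels were 7.20 and 7.28 at 12 h and 7.27 and 7.26 at 24 h, against 7.11 and 7.01 at 12 h and 7.11 and 7.08 at 24 h in control cells. All treated arrays lay above the control arrays of their time. Lipofection raised CRY2 to 121% of control at 12 h (log2 difference 0.27, SE 0.07, limma adjusted p = 0.0308) and to 142% at 24 h (0.50, SE 0.07, limma adjusted p = 0.000943). The PTD-DRBD differences of 0.18 at 12 h and 0.16 at 24 h did not pass (SE 0.07 each, limma adjusted p = 0.158 and 0.14). At 24 h lipofection exceeded PTD-DRBD by 0.34 (SE 0.07, limma adjusted p = 0.0159). The 12 h call was lost without any of the 4 arrays compared (adjusted p up to 0.182), and so was the call between the routes (adjusted p up to 0.167), while the 24 h call against control was kept in all 20 alternatives.

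CRY1 was not called against control with either route at either time, with log2 differences between -0.11 and 0.14 (SE 0.10 each). Its levels at 24 h were 9.80 and 9.53 with lipofection, 9.76 and 9.60 with PTD-DRBD, and 9.70 and 9.85 in control cells. At 12 h they were 10.54 and 10.47 with lipofection, 10.20 and 10.32 with PTD-DRBD, and 10.40 and 10.33 in control cells. Every array at 24 h lay below every array at 12 h. CRY1 fell by 0.83 with lipofection (limma adjusted p = 0.000588), by 0.58 under PTD-DRBD (limma adjusted p = 0.00345) and by 0.59 in control cells (limma adjusted p = 0.00537, with SE 0.10 for each). The call in control cells was lost without the first 12 h or the first 24 h control array (adjusted p up to 0.0548).

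NR1D2, the REV-ERB-beta receptor, was called in none of the 11 comparisons by limma, with an unadjusted p under 0.05 in 0 of them, and its lowest and highest group means differed 1.28-fold. Its levels ran from 6.39 with PTD-DRBD at 12 h to 7.09 with lipofection at 24 h, both on the first array. The arrays of 1 group differed by up to 0.52 log2, and the SE of its differences was 0.19, the widest among the 9 genes. NR1D1, the REV-ERB-alpha receptor, had raw signals between 62.3 and 85.2 and was left untested.

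DBP, a PAR bZIP activator whose gene is a direct target of CLOCK and BMAL1, was higher at 24 h than at 12 h in every group. At 24 h its levels were 7.90 and 8.18 with lipofection, 7.39 and 7.79 with PTD-DRBD, and 7.70 and 7.53 in control cells. At 12 h they were 6.80 and 6.70 with lipofection, 6.30 and 6.05 with PTD-DRBD, and 6.50 and 6.68 in control cells. No array at 24 h overlapped with any array at 12 h. DBP rose 2.45-fold over the interval with lipofection (limma adjusted p = 0.000347), 2.67-fold with PTD-DRBD (limma adjusted p = 0.000173) and 2.03-fold in control cells (limma adjusted p = 0.00142), and these calls were kept in all 20 alternatives. The authors' normalized group means of DBP rose less. They were 149.8 at 12 h and 301.2 at 24 h with lipofection, 114.4 and 232.6 with PTD-DRBD, and 138 and 239.3 in control cells. At 12 h lipofection exceeded PTD-DRBD 1.49-fold (log2 difference 0.58, SE 0.14, limma adjusted p = 0.0218), a call lost without the second PTD-DRBD array or either lipofection array (adjusted p up to 0.126). Against control at 24 h, the lipofection difference was 0.43 (SE 0.14, limma adjusted p = 0.051), and 9 of 20 alternatives called it. With PTD-DRBD the differences from control were -0.42 at 12 h and -0.02 at 24 h (SE 0.14 each, limma adjusted p = 0.0999 and 0.926).

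TEF, the second PAR bZIP factor, had levels at 24 h of 6.45 and 6.54 with lipofection, 6.59 and 6.26 with PTD-DRBD, and 6.23 and 6.20 in control cells. At 12 h these were 6.19 and 6.12 with lipofection, 5.74 and 5.59 with PTD-DRBD, and 5.87 and 6.20 in control cells. The PTD-DRBD arrays at 12 h were the lowest of all 12. TEF rose 1.69-fold between the times with PTD-DRBD (log2 difference 0.76, SE 0.13, limma adjusted p = 0.00238). The authors' normalized group means of TEF with PTD-DRBD were 92.9 at 12 h and 127.7 at 24 h, a smaller rise. The changes of 0.34 with lipofection and 0.18 in control cells did not pass (SE 0.13 each, limma adjusted p = 0.0692 and 0.434). At 12 h lipofection exceeded PTD-DRBD 1.40-fold (limma adjusted p = 0.0252), and leaving out any of the 4 arrays ended that call (adjusted p up to 0.136).

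Between the routes, 3 of the 9 genes were called at 12 h, all higher with lipofection than with PTD-DRBD (BHLHE40, DBP and TEF), where 14.8% of all genes were called (6.51% higher and 8.29% lower). At 24 h 3 were again called higher with lipofection (BHLHE40, PER1 and CRY2), where 8.25% of all genes were called (4.69% higher and 3.57% lower). Leaving out any 1 of the arrays compared lowered the count of all genes to between 697 and 1115 at 12 h, against 1793, and to between 375 and 538 at 24 h, against 1000. Without the second arrays of both treated groups at 24 h, 0 of the 9 were called by limma, and 4 had an unadjusted p under 0.05.

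Across the 12 h that separated the collections, 7 of the 9 clock genes were called with lipofection (25.6% of all genes called), 3 with PTD-DRBD (24.5%) and 5 in control cells (8.71%). The share of all genes called higher was 13.2% with lipofection, 12% with PTD-DRBD and 4.15% in control cells, and the share called lower was 12.4% with lipofection, 12.5% with PTD-DRBD and 4.56% in control cells. Of all genes, as few as 1008 with lipofection (without its second 24 h array), 1022 with PTD-DRBD (without its second 12 h array) and 399 in control cells (without their first 12 h array) were called with 1 array left out, against 3096, 2970 and 1055. With lipofection PER1, PER2, CRY2 and DBP rose while BHLHE40, PER3 and CRY1 fell. With PTD-DRBD DBP and TEF rose while CRY1 fell. In control cells DBP rose while BHLHE40, PER1, PER2 and CRY1 fell, the fall of PER1 being at least 1.10-fold. DBP and CRY1 were the genes called in all 3 treatments, DBP rising and CRY1 falling. Without the second arrays of both treated groups at 24 h, the count with lipofection was 4 and the count with PTD-DRBD stayed at 3. The rise of PER1 with lipofection was lost without any array of that comparison and the fall of PER1 in control cells in 11 of 19 alternatives, while the rise of CRY2 with lipofection was lost without any array of its comparison. The fall of PER3 with lipofection was lost without the first array at 12 h or the second at 24 h (adjusted p up to 0.137), and the rise of PER2 as given above.

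**Figure D3:**
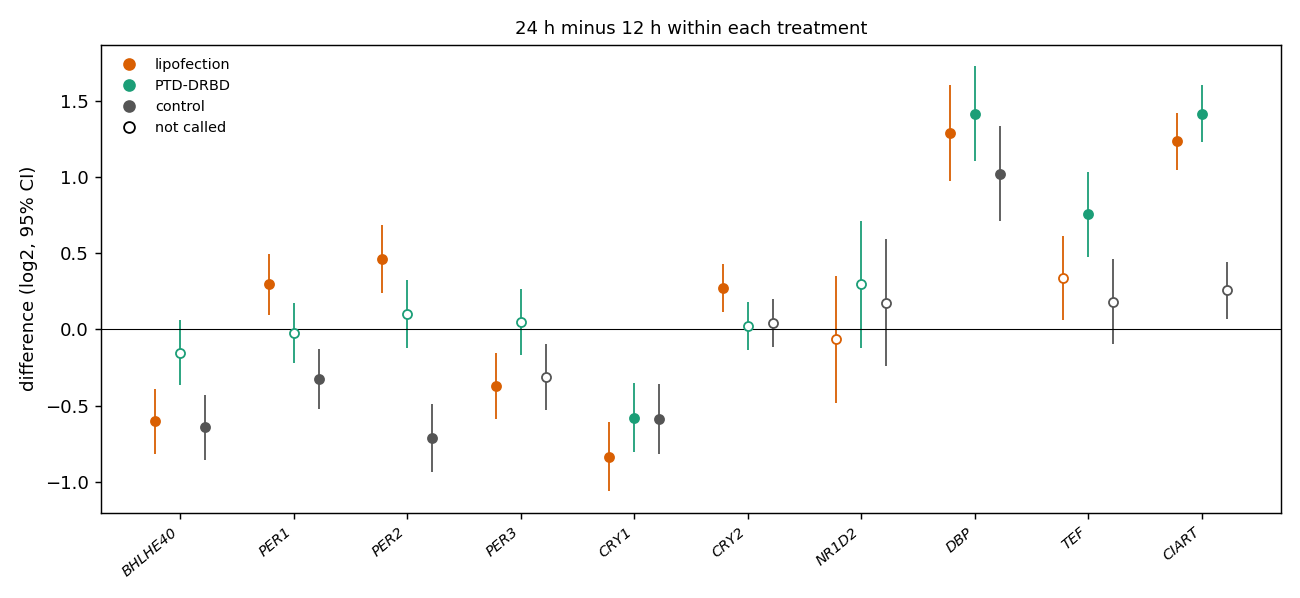
Difference between 24 h and 12 h in normalized log2 signal (vertical axis) within lipofection, PTD-DRBD and control cells for the 9 clock genes and CIART; points are limma estimates, bars 95% confidence intervals, and filled points passed an adjusted p of 0.05. DBP rose and CRY1 fell in all 3 treatments, and PER2 rose with lipofection and fell in control cells.

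In the order of the group means, BHLHE40 was highest in control cells at 12 h (10.67 ± 0.22, SD) and lowest with PTD-DRBD at 24 h (9.46 ± 0.02), a span of 2.33-fold. The control and lipofection groups did not differ beyond their spread within either time, since their arrays overlapped. DBP had the widest span, 3.65-fold, from PTD-DRBD at 12 h to lipofection at 24 h, and CRY1 and TEF each spanned 1.78-fold. PER2 spanned 1.64-fold, with both extremes in control cells, highest at 12 h and lowest at 24 h. CRY2 spanned 1.46-fold, PER3 1.44-fold and PER1 1.41-fold. As a description over the 12 arrays, which share their groups, the strongest correlations between clock genes were that of DBP with CRY1 (Pearson r = -0.88) and that of DBP with TEF (r = 0.85). PER1 and PER2 correlated at 0.70.

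Over the same 12 arrays, the genes most like each clock gene were found among all genes tested. The 3 most like BHLHE40 were ZNF529, BTN2A2 and NXT2 (Pearson r = 0.91 to 0.92), and those most like PER2 were ANKRD27, MSANTD3 and RAB32 (r = 0.89 to 0.92). PER1 was followed by GRINA, SAA1 and CSTF3 (r = 0.87 to 0.91) and PER3 by PTGR3, RASSF5 and TIFA (r = 0.89 to 0.90). CRY1 was followed by POMT1, EXOC7 and CBFB (r = 0.96 to 0.97) and CRY2 by ZNF16, MYLIP and VAT1 (r = 0.96 to 0.97). DBP was followed by NARF, METTL9 and RNF122 (r = 0.97 to 0.98) and TEF by SUCLG1, CADM4 and ASF1B (r = 0.92 to 0.94). These values describe the 12 arrays, with no test.

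Among the other repressors and output factors of the clock, 4 of 5 listed genes were tested, and CIART moved the most. At 12 h its levels were 6.93 and 6.92 with lipofection, 6.23 and 6.14 with PTD-DRBD, and 6.80 and 6.70 in control cells. At 24 h they were 8.19 and 8.13 with lipofection, 7.62 and 7.58 with PTD-DRBD, and 6.90 and 7.11 in control cells. The 3 groups did not overlap at either time. At 24 h CIART rose to 223% of control with lipofection (log2 difference 1.15, SE 0.09, limma adjusted p = 1.36e-05) and to 151% with PTD-DRBD (0.59, SE 0.09, limma adjusted p = 0.00328). At 12 h it fell to 67.6% of control with PTD-DRBD (-0.57, SE 0.09, limma adjusted p = 0.00343), and the lipofection difference of 0.18 did not pass (limma adjusted p = 0.222).

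CIART, like PER2, was called for a change of both treatment differences between the times, by 0.98 with lipofection (SE 0.12, limma adjusted p = 0.00227) and by 1.16 with PTD-DRBD (SE 0.12, limma adjusted p = 0.00267). From 12 h to 24 h it rose by 1.23 with lipofection and 1.42 with PTD-DRBD (limma adjusted p = 4e-05 and 8.96e-06), while the change of 0.26 in control cells did not pass (limma adjusted p = 0.0927). Lipofection exceeded PTD-DRBD by 0.74 at 12 h and 0.56 at 24 h (limma adjusted p = 0.000316 and 0.00329), the second of which was lost without the second arrays of both groups. NFIL3, a D-box repressor, fell by 0.32 with PTD-DRBD at 24 h (limma adjusted p = 0.034), when lipofection exceeded PTD-DRBD by 0.43 (limma adjusted p = 0.0115). The NFIL3 call against control was lost in 7 of 20 alternatives (adjusted p up to 0.216), and the call between the routes without the second array of either group or of both (adjusted p up to 0.228). TIMELESS, a replication fork protein named for a fly clock gene, fell by 0.35 with lipofection at 24 h (limma adjusted p = 0.0081, and up to 0.067 without the second lipofection array).

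Of the 7 listed activators of the clock, 5 were tested, and BMAL1 was the one called. It was lower with lipofection at 24 h, where 12.9% of all genes were lower, and fell over time with PTD-DRBD, where 12.5% of all genes fell. Its levels at 24 h were 6.63 and 6.15 with lipofection, 6.47 and 6.30 with PTD-DRBD, and 6.78 and 7.04 in control cells. Both treated groups lay below the control arrays at 24 h. The difference from control was -0.52 with lipofection (SE 0.16, limma adjusted p = 0.0407), which was lost in 10 of 20 alternatives, and -0.53 with PTD-DRBD, which did not pass (SE 0.16, limma adjusted p = 0.054). With PTD-DRBD BMAL1 fell by 0.61 from 12 h to 24 h (limma adjusted p = 0.0211), a call lost without either PTD-DRBD array at 12 h or the second at 24 h. The median difference of the 5 activators from control lay between -0.05 and 0.04 in the 4 comparisons.

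Of 18 listed kinases, ligases and phosphatases that act on clock proteins, 17 were tested. FBXL21P, the human copy of a clock ubiquitin ligase gene that RefSeq names as a pseudogene, was called lower in all 4 comparisons with control. Its difference from control was -1.02 with lipofection at 12 h (limma adjusted p = 0.000329) and between -0.61 and -0.47 in the other comparisons. The first of these calls was kept in all 20 alternatives. The FBXL21P call was lost in 3 of 20 for PTD-DRBD at 12 h, without either control array or the first PTD-DRBD array (adjusted p up to 0.0889). At 24 h it was lost in 2 for lipofection (adjusted p up to 0.0547) and in 4 for PTD-DRBD (adjusted p up to 0.182), in both without the second control array. With lipofection at 12 h USP2, a deubiquitinase that acts on clock proteins, and CSNK1E, a casein kinase that phosphorylates PER proteins, were also lower, by -0.39 and -0.38, and GSK3B, a kinase of several clock proteins, was higher by 0.36 (limma adjusted p = 0.00587, 0.0153 and 0.0312). The USP2 call was kept in all 20 alternatives, while those of CSNK1E and GSK3B were each lost in 4 (adjusted p up to 0.117 and 0.221), CSNK1E without any of the 4 arrays compared and GSK3B without 3 of them. In all, 1 of the 17 was higher and 4 lower with lipofection at 12 h (4.95% and 6.92% of all genes), and 1 higher and 1 lower with PTD-DRBD at 12 h (3.42% and 4.46% of all genes). At 24 h 1 was lower with each route, FBXL21P, where 12.9% of all genes were lower with lipofection and 8.15% with PTD-DRBD.

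Of the 12 corepressors and chromatin partners, 10 were tested, and 0 were called by limma against control at 12 h. At an unadjusted p under 0.05 there were 2 with lipofection and 3 with PTD-DRBD at that time. At 24 h lipofection called CREBBP (0.34) and RBM4 (0.34) higher and EZH2 (-0.28) lower, 3 of 10 where 23.6% of all genes were called, and these calls were lost in 9, 4 and 4 of 20 alternatives. PTD-DRBD called 0 by limma at 24 h, with 1 at an unadjusted p under 0.05, where 14% of all genes were called. Of the 14 clock-controlled output genes, 13 were tested, and lipofection called 3 higher and 0 lower at 12 h (KLF10, NOCT and PPARA), where 4.95% of all genes were higher and 6.92% lower. Each of these 3 was lost without either control array, and in 4, 6 and 9 alternatives in all. PPARA was close to background, detected at 12 h on 0 control arrays and 1 lipofection array, and its rise there was at least 1.11-fold. It passed the detection filter only through lipofection at 24 h, so its place in the count of 3 is not independent of that filter. PTD-DRBD called 1 higher and 2 lower at 12 h, where 3.42% of all genes were higher and 4.46% lower. At 24 h lipofection called 1 higher and 1 lower, where 10.6% of all genes were higher and 12.9% lower. PTD-DRBD called 0 higher and 2 lower by limma at 24 h, where 5.87% of all genes were higher and 8.15% lower. NOCT, the rhythmic gene of nocturnin, was above control by 0.42 with lipofection at 12 h (limma adjusted p = 0.0353) and by 0.86 at 24 h (limma adjusted p = 0.000591). Its mean level with lipofection was 10.09 at 12 h and 10.11 at 24 h, while in control cells it fell by 0.42 (limma adjusted p = 0.04). KLF9, a glucocorticoid-responsive factor with a daily rhythm in several tissues, fell with PTD-DRBD by 0.47 at 12 h and 0.46 at 24 h (limma adjusted p = 0.0126 and 0.0121), calls lost in 4 and 3 of 20 alternatives (adjusted p up to 0.086 and 0.119), the first without any of the 4 arrays compared. KLF9 rose between the times in all 3 treatments, by 0.49 with lipofection, 0.62 with PTD-DRBD and 0.61 in control cells. CDKN1A, a cell cycle inhibitor, fell over the same interval by 0.38 with lipofection, 0.85 with PTD-DRBD and 0.64 in control cells.

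Hypoxia genes and immediate early genes were listed because BHLHE40 responds to low oxygen and PER1 to CREB. Of 12 hypoxia genes, 11 were tested, and between 12 h and 24 h 6 rose and 0 fell with lipofection, 4 rose and 1 fell with PTD-DRBD, and 8 rose and 0 fell in control cells. Of all genes, 13.2% rose and 12.4% fell with lipofection, 12% rose and 12.5% fell with PTD-DRBD, and 4.15% rose and 4.56% fell in control cells. BNIP3 rose by 0.72 with lipofection, 0.84 with PTD-DRBD and 1.19 in control cells. Over that interval BHLHE40 fell in lipofection and control cells, as given above. Against control at 12 h, 0 hypoxia genes were higher and 1 lower with lipofection, and 1 was higher and 0 lower with PTD-DRBD. At that time 4.95% of all genes were higher and 6.92% lower with lipofection, and 3.42% higher and 4.46% lower with PTD-DRBD. At 24 h 3 hypoxia genes were lower with lipofection and 4 with PTD-DRBD, where 12.9% and 8.15% of all genes were lower. Among them was ANGPTL4, by -0.63 with lipofection and -0.76 with PTD-DRBD. The part of these genes in the BHLHE40 and PER1 results was not tested.

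Of 12 CREB and immediate early genes, 10 were tested, FOSB passing the detection filter only through treated groups. With lipofection 5 were higher and 0 lower at 12 h, led by FOSB (2.37) and FOS (2.18), and 4 were higher and 0 lower at 24 h, where 4.95% of all genes were higher and 6.92% lower at 12 h and 10.6% higher and 12.9% lower at 24 h. With PTD-DRBD 3 were higher and 1 lower at 12 h, and 3 higher and 2 lower at 24 h, where 3.42% of all genes were higher and 4.46% lower at 12 h and 5.87% higher and 8.15% lower at 24 h. EGR1, an immediate early transcription factor, was higher with lipofection by 1.43 at 12 h and 0.78 at 24 h and with PTD-DRBD by 1.01 at 12 h and 0.56 at 24 h. PER1 was not called at 12 h and was called with lipofection at 24 h. At 12 h it was detected on 1 of the 2 lipofection arrays and 0 of the 2 PTD-DRBD arrays. The part of the immediate early genes in the PER1 result was not tested. KRT8 and KRT18 fell with lipofection at 12 h by 0.51 and 0.36 (limma adjusted p = 0.00472 and 0.0315), the KRT18 call being lost in 4 of 20 alternatives (adjusted p up to 0.248). The summed raw signal of the 17 probes for markers of other cell types lay between 1109 and 1138 with lipofection, 1104 and 1123 with PTD-DRBD and 1153 and 1198 in control cells at 12 h, and between 1024 and 1041 with lipofection, 1007 and 1035 with PTD-DRBD and 992 and 1031 in control cells at 24 h. These sums are not background-corrected or normalized, and the median raw signal of an array was 61.3 to 73.1. They therefore include array background and are no measure of other cell types by group.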

How the data were processed

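H1299 cells in 6 groups of treatment and time gave 12 arrays, 2 per group, all used here. Replicate numbers only name the arrays. The deposited non-normalized table holds raw probe intensity, read with BeadStudio per the submitters' processing notes, and a detection p-value for every probe and array per the file headers. The series matrix holds linear intensities that the authors normalized, by a method not given in the sources used here. A deposited table of changes holds a signed score, the fold over 2 treated arrays, per the file headers. Slides are not given in the sources used here.

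Background correction with the detection p-values, an offset of 16, quantile normalization and log2 were done by neqc (limma 3.58.1, R 4.3.3). The detection rule kept 19631 probes, or 40.3%. By the platform annotation, 23687 probes had a single gene symbol, 35 several and 24979 none, and 5588 kept probes with no single symbol were dropped. Each gene was represented by its kept probe of highest mean, giving 12117 genes. Group means were fitted in limma on all arrays at once (residual degrees of freedom 6, prior 5.3), with Benjamini-Hochberg adjustment inside each of 11 comparisons. The code was tested on simulated data.

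The members and lists were chosen with earlier results of these data known, so no list count is independent support. All 10 listed genes are named in each comparison where they could be tested. From other lists, only called genes were eligible, at most the 4 with the largest change per comparison, and values of these genes in further comparisons are given where the clock genes' results touch them. Alternatives were another background correction, other normalizations, detection filters, all probes, robust moderation, and arrays left out. Figures were drawn with matplotlib in Python. The number of arrays limits the precision.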

Additional observations from a re-analysis of the deposited data

Results flagged for a closer look

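These results changed between 12 h and 24 h by the limma test of the change itself, on the log2 scale with 2 arrays per group. The lipofection difference from control rose by 1.18 for PER2, 0.98 for CIART and 0.62 for PER1, and that of GSK3B changed by -0.52. The PTD-DRBD difference from control rose by 1.16 for CIART and 0.81 for PER2. The call was lost in 6 of 19 alternatives for PER1, 11 of 20 for GSK3B with lipofection and 11 of 20 for PER2 with PTD-DRBD. All of these comparisons share the control arrays of each time. In control cells PER1 was below detection on both arrays at 24 h, so its change is a fitted value and not a bound. PER1 passed the detection filter only through lipofection at 24 h and control at 12 h, which favours this change.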

How the results depend on the processing

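Of the 33 called differences of the 9 clock genes, 20 kept their call in every alternative that did not leave out a single array, 16 with every single array left out and 15 in all, and none of the 655 alternative values reversed. The count of clock genes called for lipofection against control at 12 h was 1 with every detected probe and 1 with robust moderation. Without the second arrays of both treated groups at 24 h, an alternative chosen after seeing the data, the clock genes called were 0 for PTD-DRBD against control at 24 h, 0 between the routes at 24 h, 4 over time with lipofection and 0 for the change of the PTD-DRBD difference. For the change of the lipofection difference, the clock genes called were 1 without background correction and 1 with detection on all 12 arrays. In the latter PER1, detected on 6 arrays, was not tested, so its call could not be kept. For that of PTD-DRBD they were 2 without background correction, 2 with robust moderation, 0 with no detection filter and 0 with every detected probe. At an unadjusted p under 0.05 by limma, 3 to 5 clock genes stood where 0 were called for PTD-DRBD or between the routes, and 2 where 0 were called for lipofection at 12 h without its second array. The causes of the other shifts were not tested.

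With each array left out in turn, the clock genes called ranged from 0 to 2 for lipofection and 1 to 2 for PTD-DRBD against control at 12 h, and from 3 to 4 for lipofection and 0 to 2 for PTD-DRBD at 24 h. They ranged from 1 to 3 between the routes at 12 h and 1 to 3 at 24 h, from 3 to 8 over time with lipofection, 3 to 3 with PTD-DRBD and 3 to 5 in control cells, and from 1 to 2 and 0 to 1 for the changes of the lipofection and the PTD-DRBD difference. A group with a lone array was assumed to vary like the others. Over all genes, without those second arrays, the counts called were 221 for PTD-DRBD at 24 h, against 1699 with all arrays, and 142 between the routes at 24 h, against 1000. For all genes, the change of the lipofection difference called 264 to 1620 without leaving out a single array, against 968, and that of PTD-DRBD 12 to 309, against 44. With 1 array left out these were 177 to 1091 and 10 to 83. No paired analysis was possible because the replicate numbers follow the order of deposit and pair no arrays. NR1D1 and PER1 were limited by signal close to background.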
